A study of Mus musculus with 115 samples.

Results

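Proliferating granulosa cells of the mouse ovary are described here by genotype: wild type, db/db or ob/ob. They were 1014 of 5081 granulosa cells (19.96%, exact 95% binomial interval 18.9% to 21.1%) and of 7787 somatic cells kept in all. A cell counted as granulosa when at least 3 of the 6 genes Inha, Foxl2, Fshr, Amh, Inhba and Hsd17b1 had a unique molecular identifier count (UMI, 1 per captured transcript) and fewer than 3 of the 4 stroma genes Dcn, Lum, Mgp and Mfap4 reached 1 per 10000 UMIs. It counted as proliferating when at least 4 of the 7 genes Aurkb, Cdc20, Ube2c, Cenpa, Pbk, Top2a and Mki67 reached 0.5 per 10000 UMIs. Measured values thus chose the cells, so levels of these genes, and the contrast with the remaining granulosa cells, are given as descriptions without a test. Of the members, 173 were wild type, 474 db/db and 367 ob/ob.

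Granulosa cells surround the oocyte, feed it through gap junctions and make the inhibins, activins and oestrogen of the follicle. A follicle grows mainly because these cells divide under the drive of follicle-stimulating hormone, activins and insulin-like growth factor, and their division slows when they luteinise after ovulation. Dividing cells copy their DNA in S phase, when histone and nucleotide synthesis genes are on, and then switch on cyclin B, the Polo-like and Aurora kinases and the kinetochore genes that carry them through mitosis, after which the anaphase-promoting complex has the mitotic proteins destroyed. The hormone leptin, the product of Lep, acts through the receptor encoded by Lepr. The ob allele lies in Lep and the db allele in Lepr, and homozygotes of either are obese.

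The study measured single ovarian cells of 3 genotypes by polyA RNA sequencing. Wild type carries the strain label C57BL/6-129Sv (31 libraries of somatic cells), whereas db/db (30 libraries) and ob/ob (31 libraries) are labelled C57BL/6. Cells were freed with collagenase and picked by hand under a stereomicroscope, which can set the share of any cell type. The series' design text also names RD and HFD mice, without spelling these out, but the labels assign no library to either and name no animal, age or diet, so a library is the replicate here, and each p-value reflects spread among libraries alone, part of which may be technical. Strain and library number separate wild type from both mutants in full, so genotype, strain and order of preparation cannot be told apart in those comparisons. The 2 mutants share a strain label and alternate in blocks of library numbers from 82 on. Within each of the 2 number ranges compared below, all db/db libraries precede all ob/ob libraries. Genotype and order of preparation cannot be told apart there either. The same 96 cell barcodes recur, each in 29 to 91 libraries, and no 2 kept cells held identical counts.

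Libraries with at least 5 members entered the tests between genotypes: 14 of wild type, 25 of db/db and 25 of ob/ob. Summed UMIs per library ranged between 757474 and 3776338 for wild type, between 1420056 and 11946128 for db/db and between 1064311 and 5135109 for ob/ob. Members held a median of 201655 UMIs per cell in wild type, 138050 in db/db and 127414 in ob/ob. The medians of genes per cell were 4390, 4779 and 4784. In 3 libraries the members also carried much oocyte RNA: summed oocyte markers reached 16471 CPM (UMIs scaled to one fixed library total) in db/db replicate 9, 30959 in db/db replicate 23 and 5666 in ob/ob replicate 21. Results that rest on these libraries are given with and without them. The cut of 1000 CPM that separates them was chosen after seeing the data. Just below it, db/db replicates 6 (862 CPM) and 8 (967 CPM) and ob/ob replicate 23 (912 CPM) stayed in. In db/db replicate 8 only 14 of 33 members held fewer than 3 oocyte markers.

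The genes of the rule were far above the remaining granulosa cells, as the choice of cells requires. Ube2c, the ubiquitin-conjugating enzyme of the anaphase-promoting complex, averaged 5.92 per 10000 UMIs in members and 0.826 in the other 4067 granulosa cells. Cenpa, the histone that marks centromeres, averaged 5.32 against 0.972, and Top2a, which untangles DNA, 3.40 against 0.920. Aurkb, a kinase of the chromosomal passenger complex, averaged 1.61 against 0.179, Cdc20, the activator of the anaphase-promoting complex, 2.16 against 0.346, Pbk, a mitotic kinase, 2.09 against 0.282 and Mki67, which coats mitotic chromosomes, 1.39 against 0.442. The threshold runs through a continuous range: 360 members stood just inside with 4 genes, and 536 cells just outside with 3. Ube2c averaged 3.64 inside and 2.06 outside, and Aurkb 0.960 and 0.459. Of the members, 290 held 5 genes and 243 held 6. In wild type 44 of 173 members stood at the lowest number of 4 genes, and in db/db 178 of 474.

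Granulosa genes of the rule had to be detected, so their levels only describe the members. Inha, the inhibin alpha subunit, averaged 99.4 per 10000 UMIs in members and 80.8 in other granulosa cells, and Hsd17b1, which makes oestradiol, 4.95 against 2.75. Foxl2, a transcription factor of ovarian identity, averaged 0.298 against 0.376, Fshr, the receptor of follicle-stimulating hormone, 0.590 against 0.554, Amh, anti-Müllerian hormone, 0.329 against 0.233 and Inhba, the activin beta A subunit, 5.65 against 5.96. Inha was not limited to the class: 99.6% of the 2706 cells that failed the granulosa rule held at least 1 Inha UMI, at a lower mean of 37.0 per 10000 and a median depth of 46380 UMIs against 97437 in granulosa cells. The rule thus rests on the less abundant genes beside Inha. Among cells outside the class, 248 of 2706 met the proliferation criterion (9.16%).

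Within libraries, members were compared with the other granulosa cells by the log2 ratio of CPM, and the median over 64 libraries describes each gene. Since the rule used this contrast, no test is given. The background was low, with 21.3% of 12532 genes above 0 and 1.29% above 1, and a median over all genes of -0.13. Mitotic cyclins and kinases had a list median of 1.80, with 19 of 20 members above 0. Plk1, the Polo-like kinase that drives entry into mitosis, averaged 136.2 CPM in members and 18.3 CPM in the other granulosa cells, a median log2 ratio of 2.78, and was higher in 61 of 64 libraries. Ccnb1, cyclin B1, averaged 383 against 72.6 CPM, with a ratio of 2.62 and 63 of 64 libraries higher. Cdc25c, the phosphatase that activates cyclin B with its kinase, had a ratio of 2.79.

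All 28 kinetochore and checkpoint genes and all 30 spindle and cytokinesis genes lay above 0, with list medians of 1.78 and 1.77. Spc25, a subunit of the Ndc80 complex that holds microtubules, averaged 278 against 53.2 CPM, and Cdca8, the passenger complex protein borealin, 411 against 87.8 CPM, each higher in 64 of 64 libraries. Prc1, which bundles the central spindle, averaged 260.1 against 49.7 CPM, with a ratio of 2.69. Fbxo5, the inhibitor of the anaphase-promoting complex also called Emi1, had a ratio of 2.16, while its list of the complex and its substrates had a median of only 0.08. Most subunits of the complex are present throughout the cell cycle.

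Genes of S phase were raised less. The list of G1/S and DNA replication genes had a median of 0.53, with 36 of 43 above 0 and 6 below. Rrm2, the ribonucleotide reductase subunit that makes deoxynucleotides, averaged 214 against 80.6 CPM, with a ratio of 1.34 and 61 of 64 libraries higher. Tk1, thymidine kinase, had a ratio of 1.38. The rule holds genes of G2 and mitosis for the most part, so the cells it picks lean to those phases. Mitotic chromatin genes, among them condensin subunits and high-mobility group proteins, had a median of 0.75 with 19 of 19 above 0, led by the condensin gene Ncapg at 2.17.

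**Figure D1:**
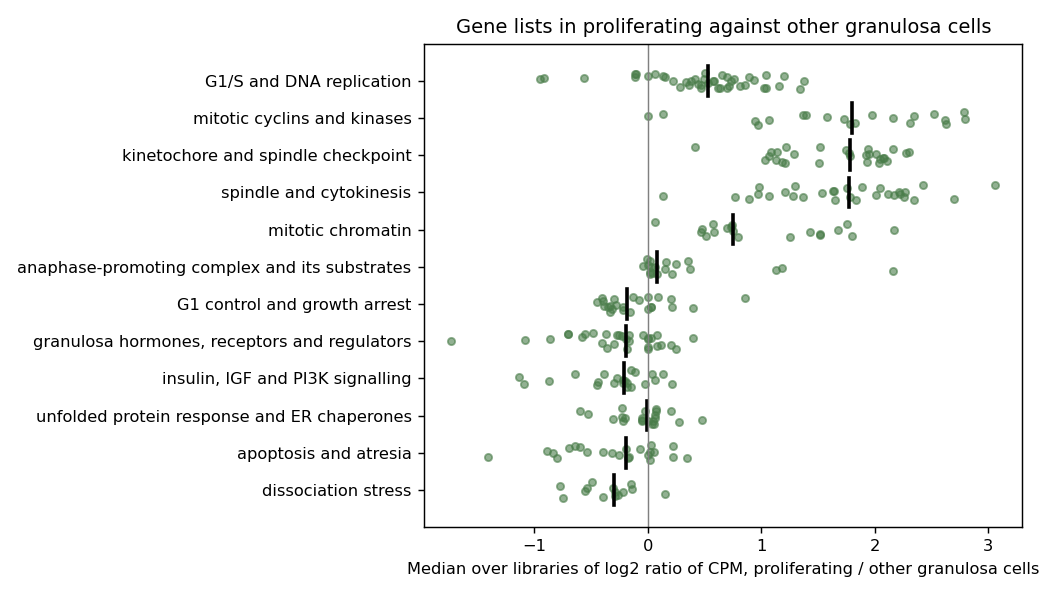
Log2 ratio of CPM in proliferating against other granulosa cells (horizontal axis), 1 point per gene, each the median over 64 libraries, for 12 gene lists (vertical axis), with black bars at list medians. The 3 mitotic lists sit near 1.8, G1/S and DNA replication at 0.53, and lists outside the cell cycle at or below 0.

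Lists outside the cell cycle stayed near the background. Granulosa hormones, receptors and regulators had a median of -0.20 (7 of 31 above 0), insulin, IGF and PI3K signalling -0.21, leptin signalling -0.18, G1 control and growth arrest -0.19, apoptosis and atresia -0.19, dissociation stress -0.30 and the unfolded protein response -0.01, beside -0.13 over all genes. Inha itself had a ratio of -0.03 and was higher in 32 of 64 libraries. Hsd17b1 had 0.44 (51 of 64 libraries) and Amh 0.31, while Fshr, Inhba and Foxl2 had -0.15, -0.21 and -0.60. Outside the rule, Inhbb, the activin and inhibin beta B subunit, had 0.25 (41 of 64). Members also held more RNA: endogenous UMIs per spike-in UMI were 1.66-fold those of other granulosa cells at the median (log2 0.73), higher in 63 of 64 libraries. This log2 ratio averaged 0.92 ± 0.33 (SD, n = 14) in wild type, 0.73 ± 0.38 (n = 25) in db/db and 0.70 ± 0.36 (n = 25) in ob/ob. Whether a cell meets the rule depends on its depth, since a single UMI passes in shallow cells and several are needed in deep ones. The choice of cells can thus bear on this ratio.

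Promoters of several of these genes hold the sequence pair known from late cell cycle genes: CCAAT boxes, bound by the factor NF-Y, and a cell cycle homology region read here as TTTGAA. Both strands were searched in the 120 bases before the annotated start of transcription, in RefSeq sequences of build GRCm38.p6, and no hits of the 2 motifs overlapped in the windows shown. Of all 32851 promoters, 21.3% held CCAAT, 7.12% TTTGAA and 1.5% both. Of the 7 proliferation genes of the rule 5 matched the table, and 4 held CCAAT, 4 TTTGAA and 3 both. Among the lists, CCAAT was present in 81.2% of 16 promoters of mitotic cyclins and kinases, 62.1% of 29 promoters of spindle genes, 50% of 38 promoters of G1/S genes, 37% of 27 promoters of kinetochore genes and 36.8% of 19 promoters of the anaphase-promoting complex and its substrates. TTTGAA was present in 18.8%, 31%, 7.89%, 14.8% and 10.5% of them. CCAAT is no mark of mitosis, since 84.2% of 19 promoters of unfolded protein response genes held it, and none of them held TTTGAA. A match describes letters and shows no binding. Shown here, 3 genes of the rule with both motifs stand beside Rrm2 and Fbxo5, 2 genes that differed between genotypes, which hold CCAAT alone. The window of Ncaph, another gene that differed, held neither motif. The windows shown lie at chr4:118437344-118437463 (Cdc20, minus strand), chr2:164769809-164769928 (Ube2c, plus), chr11:99024190-99024309 (Top2a, minus), chr12:24708134-24708253 (Rrm2, plus) and chr10:5805466-5805585 (Fbxo5, minus), written 5′ to 3′ toward the gene, with matches of either motif, on either strand, in capitals (a match on the opposite strand reads ATTGG for the first motif and TTCAAA for the other).
Cdc20: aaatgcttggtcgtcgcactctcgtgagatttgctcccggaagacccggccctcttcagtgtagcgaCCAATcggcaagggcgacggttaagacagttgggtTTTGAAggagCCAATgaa
Ube2c: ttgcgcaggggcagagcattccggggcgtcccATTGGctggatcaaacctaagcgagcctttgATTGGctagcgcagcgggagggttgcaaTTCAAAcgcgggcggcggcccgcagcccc
Top2a: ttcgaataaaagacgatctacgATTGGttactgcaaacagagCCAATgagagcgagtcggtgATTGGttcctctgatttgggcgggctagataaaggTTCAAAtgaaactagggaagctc
Rrm2: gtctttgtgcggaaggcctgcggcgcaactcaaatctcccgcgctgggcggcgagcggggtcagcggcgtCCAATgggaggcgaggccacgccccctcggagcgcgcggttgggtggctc
Fbxo5: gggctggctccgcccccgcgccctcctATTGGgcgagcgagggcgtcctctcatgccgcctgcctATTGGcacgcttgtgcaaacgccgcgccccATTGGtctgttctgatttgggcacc

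A larger share of granulosa cells met the proliferation criterion in db/db than in wild type. Over libraries with at least 10 granulosa cells, the share ran from 0% through a median of 12.9% to 34.1% in wild type (n = 29), from 0% through 19.8% to 54% in db/db (n = 30) and from 2% through 16.5% to 31.5% in ob/ob (n = 31). The ranges overlapped throughout, and the 3 highest libraries, at 48% or above, were db/db. Means were 13.99% ± 8.21 (SD) for wild type, 22.7% ± 13.5 for db/db and 18.3% ± 9.27 for ob/ob. The db/db mean was 8.71 percentage points above wild type (two-sided permutation test, adjusted p = 0.0096 over 3 comparisons). ob/ob lay 4.32 points above wild type (adjusted p = 0.0924) and db/db 4.39 points above ob/ob (adjusted p = 0.143), neither past 0.05.

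The share changed when cells were thinned and with the number of genes asked for. Each cell was thinned to 3000 UMIs. At that depth a single UMI already lies above the level asked for, so thinning also made the criterion stricter. Effects of depth and of this stricter cut cannot be told apart in results given after thinning. After thinning, 375 granulosa cells met the criterion, 370 of them members. Means were then 6.54% (wild type), 8.002% (db/db) and 6.25% (ob/ob). The db/db difference from wild type was then 1.47 points (adjusted p = 0.457). With at least 5 of the 7 genes it was 3.71 points (adjusted p = 0.329), and with at least 3 it was 13.2 points (adjusted p = 0.00204). Among cells outside the granulosa class, the pooled share was 6.67% in wild type, 10.9% in db/db and 11.6% in ob/ob. Between the mutants, db/db exceeded ob/ob by 11.8 points within the first range of mutant library numbers, which starts at 82 (p = 0.0733, permutation test, n = 10 and 14), and differed by -0.30 points within the next, which starts at 110 (p = 0.936, n = 14 and 11).

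**Figure D2:**
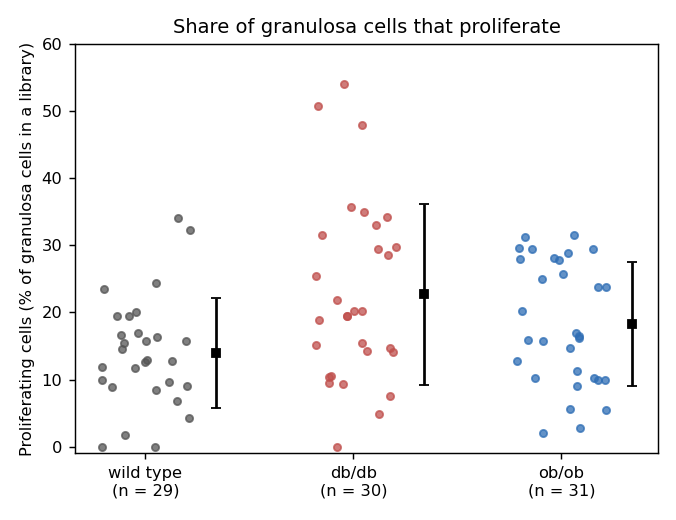
Proliferating cells as a percentage of granulosa cells (vertical axis) in each library with at least 10 granulosa cells (points), by genotype, with squares and bars for mean ± SD. The db/db mean of 22.7% exceeds the wild type mean of 13.99%, with wide overlap between libraries.

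Gene levels were compared in sums of member cells per library (edgeR quasi-likelihood test, threshold of 0.05 on p adjusted over 10365 genes). Between db/db and wild type 165 genes differed (1.59%), 88 higher in db/db (0.849%) and 77 lower (0.743%). Between ob/ob and wild type 1.1% differed, 68 genes higher in ob/ob (0.656%) and 46 lower (0.444%). Between db/db and ob/ob 39 differed (0.376%), 11 higher in db/db (0.106%) and 28 lower (0.27%). The split depended on the method. For db/db, 296 of 427 calls were higher in DESeq2, 273 of 347 in limma and 22 of 70 with only the 2 genotypes fitted, and leaving out 1 library gave 0.956% to 2.82% of genes. For ob/ob, 313 of 410, 294 of 382 and 32 of 76 were higher. The first 2 comparisons share the wild type libraries. The median log2 change over all genes was 0.12 in db/db and 0.13 in ob/ob against wild type, and -0.00 between the mutants. Positive changes made up 58.2%, 58.5% and 49.8% of genes in these comparisons, and negative ones 41.8%, 41.5% and 50.2%. Groups did not overlap at all for 5 genes in the first comparison (0.0482% of genes), 0 in the second and 2 in the third (0.0193%). In sums, fewer cells with a transcript and less of it per cell cannot be told apart.

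Levels of the selection genes in the members overlapped between genotypes. Aurkb ran from 32.8 through a median of 198 to 362 CPM in wild type, from 52.4 through 155 to 411 in db/db and from 45.1 through 135.3 to 331 in ob/ob. Cdc20 ran from 48.9 through 265 to 518, from 87.1 through 182 to 470.4 and from 79.1 through 212 to 592 CPM in that order. Ube2c had medians of 745, 576 and 673 CPM, Cenpa 531, 503 and 559.6, Pbk 283, 180 and 173, Top2a 383, 289 and 340.4 and Mki67 80.7, 107.2 and 93.7. Each member had to hold at least 4 of them, which limits how far these levels could differ.

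Mitotic genes showed no passing difference between genotypes apart from single members. None of 19 mitotic cyclins and kinases passed in edgeR for any pair of genotypes, and none in DESeq2. At an unadjusted p under 0.05 there were 2 for db/db and 2 for ob/ob against wild type and 0 between the mutants. Over all 10365 genes these counts were 1387, 1387 and 728. Medians of the 19 genes were 0.04, 0.06 and 0.05. The rule chose members mostly by genes of G2 and mitosis, which can also limit how far levels of other mitotic genes differ. Plk1 ran from 6.98 through a median of 102.2 to 277 CPM in wild type, from 7.86 through 131.4 to 439 in db/db and from 9.90 through 125.6 to 438 in ob/ob. Ccnb1 ran from 157 through 278 to 635, from 170.2 through 435 to 730.1 and from 99.3 through 326 to 877 CPM in the same order. Ccnb2, cyclin B2, had medians of 555, 553 and 726 CPM and Cdk1, the kinase that B cyclins switch on, 484, 460.0 and 439 CPM. For each of these 4 genes the genotypes overlapped over most of their range, with changes of -0.09 to 0.45 against wild type (adjusted p from 0.372 to 0.972). Among the 28 kinetochore genes, Cenpw, a histone-fold protein of the inner kinetochore, fell in db/db, from a median of 320.1 to 195 CPM (log2 change -0.64, SE 0.17, adjusted p = 0.0371). Leaving out 1 library at a time kept that call in 39 of 64 fits, with the highest adjusted p of 0.0956 without wild type replicate 13, and with members chosen after thinning the adjusted p was 0.745.

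Among 30 spindle genes Tubb5, the main beta tubulin of dividing cells, fell in db/db against both other genotypes. It ran from 854 through 2546 to 3272 CPM in wild type, from 865 through 1495 to 3617 in db/db and from 1261 through 2309 to 5667 in ob/ob. The lowest wild type library lay below all db/db libraries, while the wild type and ob/ob medians lay above that of db/db. The log2 change in db/db was -0.63 against wild type (SE 0.16, adjusted p = 0.0217) and -0.65 against ob/ob (SE 0.14, adjusted p = 0.00281). Tubulin genes are near-identical copies of each other, so reads may be shared among them. With members chosen after thinning the call against ob/ob was kept and that against wild type was not (adjusted p = 0.178).

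Of the 43 listed G1/S and DNA replication genes 1, Rrm2, passed the test. Dut and Pclaf, outside this list, also passed in db/db (calls kept in 58 and 46 of 64 fits without 1 library). Dut passed in ob/ob too (57 of 64). Rrm2 ran from 26.5 through 392 to 607 CPM in wild type, from 32.6 through 186 to 419 in db/db and from 35.7 through 138.1 to 412 in ob/ob. The wild type median lay above most mutant libraries, but the lowest wild type library lay below all of them. Rrm2 fell by 0.98 on the log2 scale in db/db (SE 0.25, adjusted p = 0.0231) and by 1.24 in ob/ob (SE 0.25, adjusted p = 0.00195). The ob/ob call held in all 64 fits that left out 1 library, and the db/db call in 62, with the highest adjusted p of 0.06035 without wild type replicate 14. With members chosen after thinning, when 7, 17 and 15 libraries remained, neither passed (log2 changes -0.84 and -1.09, adjusted p = 0.392 and 0.228). Pcna, the sliding clamp of DNA polymerase, had medians of 336, 198 and 180.5 CPM in the same order, and changes of -0.59 (adjusted p = 0.133) and -0.71 (adjusted p = 0.0667). Mcm2, of the replicative helicase, had medians of 74.0, 50.8 and 56.2 CPM.

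Across the 43 G1/S and DNA replication genes, 29 had a negative change in db/db, with a median of -0.28, and 36 in ob/ob, with a median of -0.54. Of all genes tested, 41.8% and 41.5% were negative. Tyms, thymidylate synthase, had changes of -0.77 and -0.83, Cdc6, a helicase loader, -0.55 and -1.50, and Ccne1, cyclin E1, -0.89 and -1.39, none past the test. Between the mutants, 37 of the 43 were higher in db/db, with a median of 0.26 beside -0.00 over all genes, and edgeR and DESeq2 called 0, with 2 at an unadjusted p under 0.05. Of all 10365 genes, 728 were under that value. The summed level of the list ran from 1087 through 4021 to 5859 CPM in wild type, from 1393 through 2608 to 4878 in db/db and from 1520 through 2513 to 3582 in ob/ob, so the ranges overlapped. In libraries of at least 10 members the db/db median was -0.02, with 22 of 43 negative, and the ob/ob median -0.37.

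**Figure D3:**
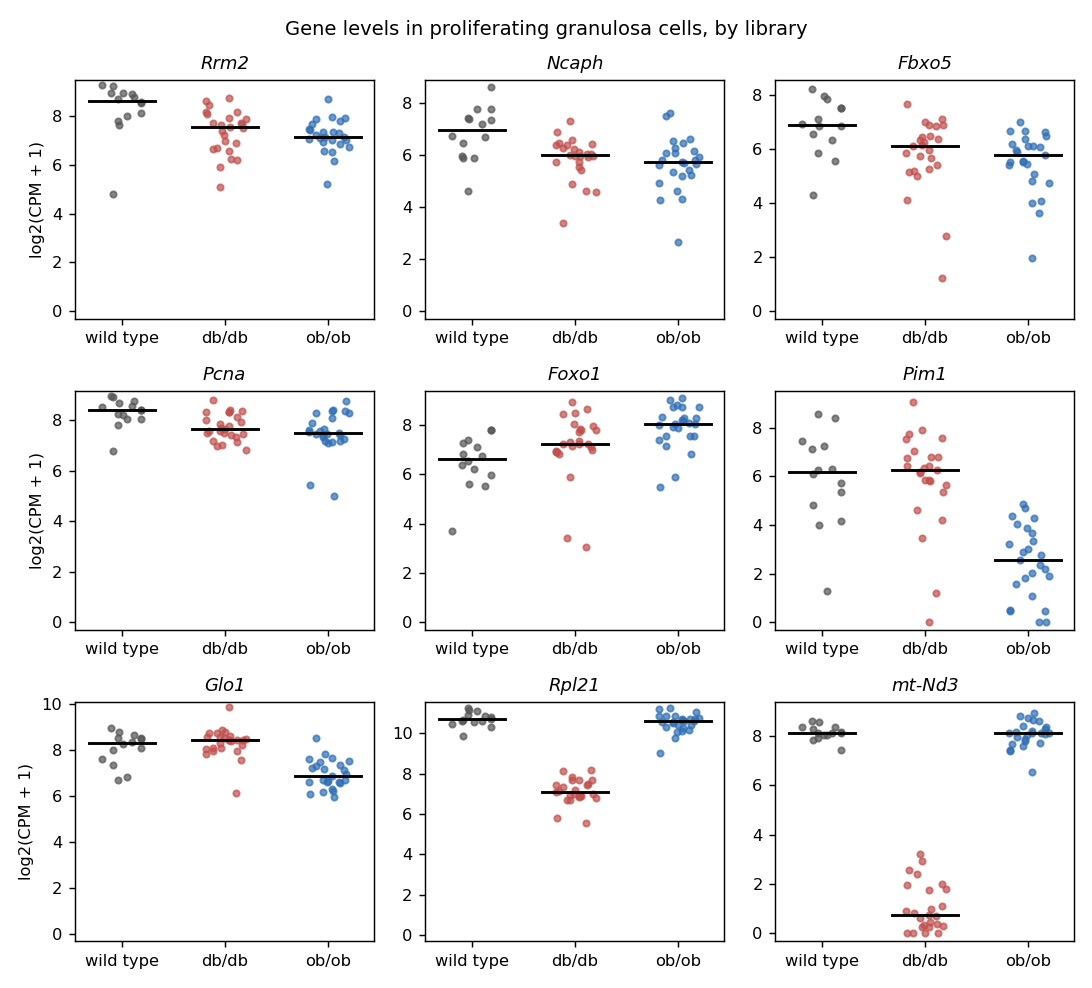
Level as log2(CPM + 1) (vertical axis) of 9 genes in summed proliferating granulosa cells, 1 point per library (14 wild type, 25 db/db, 25 ob/ob), bars at medians. Rrm2, Ncaph and Fbxo5 have lower medians in both mutants than in wild type, and Foxo1 higher ones. Pim1 has its lowest median in ob/ob, with overlapping ranges, and Rpl21 and mt-Nd3 are low in every db/db library.

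Single members of the mitotic machinery fell in ob/ob, and 1 of them also in db/db. Ncaph, the subunit that closes the condensin ring, ran from 23.5 through 126.2 to 388 CPM in wild type, from 9.42 through 63.6 to 157 in db/db and from 5.36 through 52.5 to 195 in ob/ob. It fell by 1.09 in db/db (SE 0.30, adjusted p = 0.0412) and by 1.18 in ob/ob (SE 0.30, adjusted p = 0.0271), the single call among 19 chromatin genes in each comparison. The calls held in 39 and 59 of 64 fits without 1 library, with adjusted p up to 0.136 and 0.113, both without wild type replicate 24. Fbxo5 ran from 18.4 through 117.5 to 294 CPM in wild type, from 1.30 through 67.5 to 202 in db/db and from 2.87 through 54.1 to 126.1 in ob/ob. It fell by 1.29 in ob/ob (SE 0.34, adjusted p = 0.0344) and kept the call in 50 of 64 such fits, while it did not pass in db/db. Genotype ranges overlapped for both genes. With members chosen after thinning neither passed: Ncaph changed by -0.42 in db/db (adjusted p = 0.834) and -0.29 in ob/ob (adjusted p = 0.896), and Fbxo5 by -1.11 in ob/ob (adjusted p = 0.509).

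Of 21 genes of G1 control and growth arrest, Myc, the growth-driving transcription factor, fell in ob/ob from a median of 193 to 89.98 CPM (log2 change -1.11, SE 0.26, adjusted p = 0.0104). Trp53, which encodes p53, fell in db/db from 189 to 104.5 CPM (log2 change -0.83, SE 0.23, adjusted p = 0.0438), a call kept in 33 of 64 fits without 1 library. The cyclin gene Ccnd2, through which follicle-stimulating hormone drives granulosa division, had medians of 1011 CPM in wild type, 612 in db/db and 890.0 in ob/ob, with changes of -0.35 (adjusted p = 0.806) and -0.11 (adjusted p = 0.952). The arrest genes Cdkn1a and Cdkn1b, which encode p21 and p27, had changes of -0.42 and 0.10 in db/db and -0.43 and 1.23 in ob/ob, and did not pass. Myc and Trp53 had adjusted p of 0.163 and 0.265 when members were chosen after thinning.

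Granulosa function genes did not pass. edgeR and DESeq2 called 0 of 29 hormone, receptor and regulator genes against wild type, with 1 (db/db) and 4 (ob/ob) at an unadjusted p under 0.05 and medians of 0.12 and 0.21. Of all 10365 genes, 1387 were under that value in each of these comparisons. Inhbb ran from 2.23 through 85.01 to 634 CPM in wild type, from 1.47 through 164 to 426 in db/db and from 0.428 through 189 to 1431 in ob/ob (adjusted p = 0.797 and 0.353). Inha had medians of 12372 CPM in wild type, 9071 in db/db and 9765 in ob/ob.

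Foxo1 rose in ob/ob. It encodes a transcription factor that insulin and IGF signals keep out of the nucleus and that is abundant in granulosa cells of growing follicles. It ran from 12.2 through 98.2 to 219 CPM in wild type and from 43.4 through 260 to 537 in ob/ob, and most ob/ob libraries lay above the wild type median. Its log2 change was 1.33 (SE 0.32, adjusted p = 0.0161), the single call among 22 insulin, IGF and PI3K genes, kept in all 64 fits without 1 library. In db/db it ran from 7.20 through 147.9 to 477 CPM, with a change of 0.78 (SE 0.31, adjusted p = 0.211). Ghr, the growth hormone receptor, ran from 0 through 1.66 to 20.3 CPM in wild type and from 0 through 21.2 to 195 in ob/ob and rose by 2.91 (SE 0.68, adjusted p = 0.0130). Its change in db/db was 2.09 (adjusted p = 0.0753). Foxo1 and Ghr did not pass in ob/ob when members were chosen after thinning (log2 changes 0.87 and 1.71, adjusted p = 0.490 and 0.668).

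Among 21 genes of the unfolded protein response and endoplasmic reticulum chaperones, Pdia3, a disulfide isomerase for glycoproteins, fell in both mutants. It ran from 314 through 1103 to 1453 CPM in wild type, from 286 through 714 to 1361 in db/db and from 301 through 641 to 929 in ob/ob. Changes were -0.58 (SE 0.15, adjusted p = 0.0329) and -0.69 (SE 0.15, adjusted p = 0.00637). The db/db call was kept in 41 of 64 fits without 1 library, the ob/ob call in all. Pdia6, a related isomerase, fell in db/db by 0.47 (adjusted p = 0.0449), a call kept in 35 fits. With members chosen after thinning the adjusted p of Pdia3 was 0.0997 and 0.237, and that of Pdia6 0.248. List medians were -0.24 and -0.32, with 14 and 15 of 21 members negative. Dissociation stress genes such as Fos had 0 calls in edgeR and DESeq2 for each pair of genotypes, with 3, 1 and 0 of 14 at an unadjusted p under 0.05 for db/db and ob/ob against wild type and between the mutants. Over all 10365 genes these counts were 1387, 1387 and 728.

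**Figure D4:**
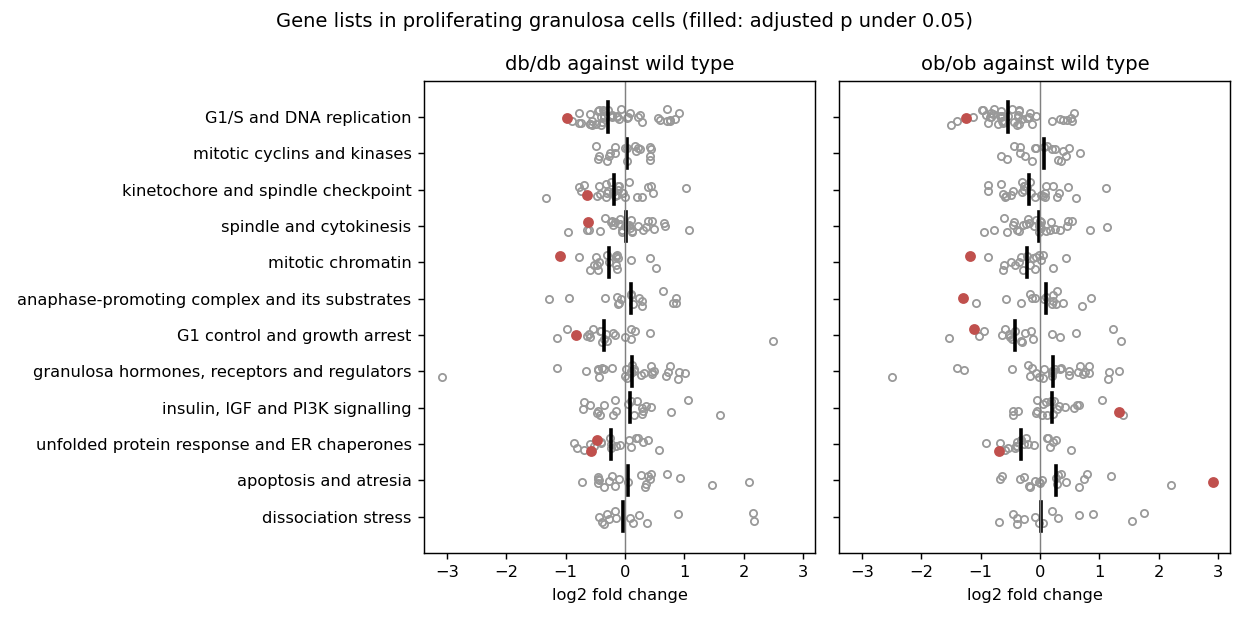
Log2 change against wild type (horizontal axis) of each gene of 12 lists (vertical axis), for db/db and ob/ob, filled points having passed the edgeR test. Most G1/S and DNA replication genes lie below 0 in both, with Rrm2 filled, and few points of any list are filled.

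The largest rises in db/db were led by oocyte genes. Among genes of at least 20 CPM on average, the 10 largest rises included Zp1, Nlrp5, Oosp2, Fbxw14, Umodl1, Nlrp14 and Fbxw18. Zp1, a zona pellucida protein, ran from 0 through 3.93 to 1741 CPM in db/db and from 0 through 0.523 to 23.7 in wild type, a log2 change of 5.84 (SE 1.39, adjusted p = 0.0161). Nlrp5, which the egg stores for the embryo, rose by 4.90 (adjusted p = 0.0298), with a db/db median of 5.42 CPM. High values thus sat in few libraries. Without the 3 libraries of high oocyte markers, Zp1 had an adjusted p of 0.377 and Nlrp5 of 0.118, and 50 genes were higher and 92 lower. Of the 88 genes that rose, 46 remained. In the members, 63 of 474 db/db cells (13.3%) held at least 3 oocyte markers, against 8 of 173 in wild type (4.62%) and 27 of 367 in ob/ob (7.36%). Without those cells 42 genes were higher and 59 lower. Among the other granulosa cells wild type was highest: 12.7% held at least 3 oocyte markers, against 8.94% in db/db and 4.34% in ob/ob.

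The largest falls in db/db were led by mt-Nd3, a mitochondrial complex I subunit, which ran from 0 through 0.664 to 8.33 CPM against 168 through 276 to 386 in wild type and 90.4 through 274 to 483 in ob/ob. Rpl21, a ribosomal protein, ran from 45.8 through 135.1 to 290.2 CPM against 940.3 through 1674 to 2478 in wild type and 515 through 1571 to 2436 in ob/ob. In neither gene did db/db overlap either other genotype. The cause of these falls was not tested. Eif4a1, an RNA helicase of translation initiation, fell by 2.13 from wild type (SE 0.19, adjusted p = 2.93e-14) and had a change of -1.71 from ob/ob. Ppia, the cyclophilin A gene, fell by 1.87 in db/db (adjusted p = 1.95e-13). Rpl21, Eif4a1 and Ppia have many near-identical copies in the genome, so which copy their reads belong to is uncertain. Pfas, an enzyme of purine synthesis, fell by 1.93 (adjusted p = 0.0263) with medians of 12.6 CPM in db/db, 25.6 in wild type and 56.2 in ob/ob. Dhrs3, which reduces retinal, fell by 1.66, from a median of 162 to 42.4 CPM. Sft2d1 fell by 2.25 from wild type. Sct, the hormone secretin, rested on wild type replicate 7 (adjusted p = 0.696 without it). Aqp1, a water channel, kept its call in 21 of 64 fits without 1 library, and its change was positive under 5 of the alternatives tried.

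Nfib and Nexn were among the largest rises in ob/ob. Nfib, a transcription factor of the nuclear factor I family, ran from 2.34 through 16.9 to 181 CPM against 0 through 1.29 to 12.2 in wild type, a log2 change of 3.41 (SE 0.65, adjusted p = 0.00128). Nexn, which binds actin, ran from 2.44 through 33.1 to 356 against 0.408 through 3.55 to 23.9 CPM (2.90, adjusted p = 0.00544). Dpysl3, a cytoskeletal regulator, rose by 2.05 from a median of 15.9 to 94.9 CPM, Col11a1, a collagen chain, by 2.97 from 1.68 to 57.2 CPM, Hspb1, a small heat shock protein, by 3.08 and Prkab2, a subunit of the energy sensor AMPK, by 2.45. Nceh1, a cholesterol ester hydrolase, rose by 2.17. Each of these 7 calls held in all 64 fits without 1 library. In db/db, compared with the same wild type libraries, 5 of them also rose: Nexn by 3.42 (adjusted p = 0.000538), Dpysl3 by 1.92 (adjusted p = 0.00755), Col11a1 by 2.63 (adjusted p = 0.0348), Hspb1 by 2.78 (adjusted p = 0.0415) and Nceh1 by 2.09 (adjusted p = 0.03004). Nfib and Prkab2 had changes of 2.01 (adjusted p = 0.0652) and 1.63 (adjusted p = 0.115) there. After thinning Col11a1 still passed, while Nfib (1.78, adjusted p = 0.662), Nexn (2.59, adjusted p = 0.227) and the other 4 did not. Markers of other cells lay higher in ob/ob as well, as given below, and their part in these rises was not tested.

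The largest falls in ob/ob included Pim1, a growth-promoting kinase. Pim1 ran from 0 through 4.90 to 28.2 CPM in ob/ob, from 1.48 through 71.7 to 382 in wild type and from 0 through 77.0 to 534 in db/db. Most ob/ob libraries lay below most of the others, although ranges overlapped. The change was -3.81 against wild type (SE 0.55, adjusted p = 1.45e-05), and db/db exceeded ob/ob by 3.72 (SE 0.51, adjusted p = 3.19e-07). Nfkbia, the inhibitor of NF-kB, ran from 67.6 through 363 to 1336 CPM against 257 through 888 to 3542 in wild type and fell by 1.52 (SE 0.28, adjusted p = 0.00128). With members chosen after thinning Pim1 still passed and Nfkbia did not (-1.03, adjusted p = 0.355). Rrad, a small GTPase, fell by 3.05, from a median of 42.9 to 1.79 CPM, and F3, tissue factor, by 1.33, a call kept in 53 of 64 fits (adjusted p = 0.1111 without wild type replicate 7). In db/db, against the same wild type libraries, Nfkbia fell by 1.13 (adjusted p = 0.0254) and F3 by 1.51 (adjusted p = 0.0107), while Rrad had a change of -1.23 (adjusted p = 0.427). Sct again rested on wild type replicate 7 (adjusted p = 0.510 without it), and Rnf138 kept its call in 19 of 64 fits.

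Between the mutants, Glo1, the detoxifying enzyme glyoxalase 1, was higher in db/db: it ran from 69.4 through 345 to 957 CPM against 61.4 through 116.3 to 367 in ob/ob, a log2 difference of 1.36 (SE 0.18, adjusted p = 7.20e-08). Glo1 was also lower in ob/ob than in wild type, a call kept in all 64 fits without 1 library. Most wild type libraries lay above the ob/ob median. The pseudogene Rpl14-ps1 was higher in db/db than in ob/ob by 2.73, with medians of 251 and 33.7 CPM, and Plbd1, a phospholipase-like protein, by 2.13. Lower in db/db were Slc27a1, a fatty acid transporter, with medians of 4.52 and 37.8 CPM (-2.58, adjusted p = 1.67e-05), Ubb, a polyubiquitin gene, with 2346 and 7538 CPM (-1.55), Phactr2, a phosphatase regulator, with 79.1 and 264 CPM (-1.83), and Wnk1, a kinase of ion transport, with 116.8 and 258 CPM (-1.26). These calls held in all 64 fits without 1 library, whereas Fbxw14, an oocyte gene, had an adjusted p of 0.674 without db/db replicate 23. Within the first range of library numbers alone 16 genes passed and within the next 27, with 6 and 13 db/db and 8 and 11 ob/ob libraries.

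The genes that carry the mutations were barely detected. Lep had 0 UMIs in members of wild type and db/db and 2 in ob/ob, both in 1 library. A count of 0 allows up to 0.0642 CPM in wild type and 0.0304 in db/db, for counting error only. Lepr was found in 4 libraries of wild type, 12 of db/db and 17 of ob/ob, at 2.76, 1.77 and 1.96 CPM pooled, and failed the filter on low counts. Gene counts do not separate transcript forms or alleles, so neither checks the labels. Of 9 other genes of leptin signalling tested, edgeR and DESeq2 called 0 for each pair of genotypes, with 2, 0 and 0 at an unadjusted p under 0.05 in the order used above. Over all 10365 genes these counts were 1387, 1387 and 728.

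Markers of other ovarian cells differed in level between the groups of libraries. Summed oocyte markers had medians of 26.03 CPM in wild type, 106.98 in db/db and 90.6 in ob/ob, with the 3 libraries named above far higher. Smooth muscle markers had medians of 33.6, 108.9 and 177 CPM, stroma markers 256, 232 and 571, theca markers 130, 225 and 338 and surface epithelium markers 0.746, 3.45 and 20.1, the last with 940 CPM in ob/ob replicate 29. Upk3b was at 0 in all wild type libraries. Krt19, an epithelial keratin, and Msln, mesothelin, rose in ob/ob against wild type (log2 changes 6.11 and 5.31, adjusted p = 0.00216 and 0.00455) and were lower in db/db than in ob/ob, with medians of at most 4.90 CPM. Without ob/ob replicate 29, Krt19 had an adjusted p of 0.292 between the mutants. Luteal markers had medians of 1160, 1568 and 1414 CPM and exceeded 5000 in wild type replicate 20, db/db replicates 11, 12 and 14 and ob/ob replicate 14. Without these 5 libraries 286 genes differed between db/db and wild type and 269 between ob/ob and wild type. Macrophage markers stayed at or below 163 CPM. The part of these cells in the gene differences was not tested.

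**Figure D5:**
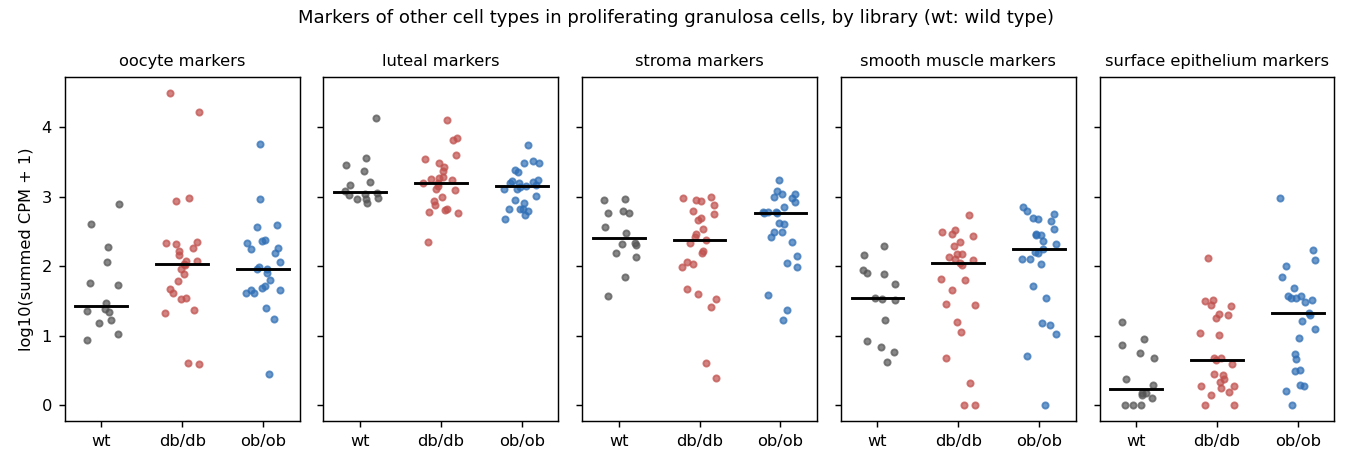
Summed level of markers of 5 other cell types as log10(summed CPM + 1) (vertical axes) in proliferating granulosa cells, 1 point per library, bars at medians. Oocyte markers stand far above the rest in 2 db/db libraries and 1 ob/ob library, and surface epithelium markers have medians of 0.746 (wild type), 3.45 (db/db) and 20.1 CPM (ob/ob).

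To ask whether genotype differences were particular to dividing cells, the difference in members was set against that in the other granulosa cells of the same libraries (edgeR, genotype by state, library as a block, 12532 genes). For db/db against wild type 55 genes passed (0.439%), 50 with a higher difference in members, for ob/ob against wild type 29 (0.231%) and for the mutants 1 (0.00798%). Oocyte genes led: Zp1 had an interaction of 4.22 in db/db and 4.19 in ob/ob. Of 11 oocyte markers 6 and 4 passed. The list median of their within-library log2 ratio was -1.07 in wild type, -0.18 in db/db and -0.28 in ob/ob. At the median, members thus lay below the other granulosa cells in each genotype, furthest in wild type. Without the 3 libraries of high oocyte markers 14, 28 and 0 passed, and without cells holding oocyte markers 5, 17 and 0. Foxn2, a forkhead factor, had an interaction of -2.97 in db/db and -2.70 in ob/ob. The rule split the states mostly by genes of G2 and mitosis, within cells chosen by granulosa genes. This can limit how far interactions of cell cycle and granulosa genes could differ. No gene of the cell cycle, granulosa, insulin or stress lists passed, but these lists do not hold every mitotic gene. Outside them, Ercc6l had interactions of -3.79 in db/db (adjusted p = 0.0179) and -3.97 in ob/ob (adjusted p = 0.0246). Ccsap, also outside them, had 3.57 in ob/ob (adjusted p = 0.0411). The genes mt-Nd3, Rpl21, Eif4a1 and Ppia, named above for their falls in db/db, were not among those that passed for db/db against wild type. Rrm2 had interactions of -0.32 (adjusted p = 0.771) and -0.46 (adjusted p = 0.651), Ncaph -0.94 (adjusted p = 0.215) and -0.99 (adjusted p = 0.210), Foxo1 0.23 in ob/ob (adjusted p = 0.868) and Pim1 -0.72 (adjusted p = 0.727). For Rrm2, Ncaph, Foxo1 and Pim1 a genotype difference particular to proliferating cells was therefore not detected. On simulated counts for db/db against wild type, this fit recovered 10 of 100 log2 changes of 1 and 57 of 100 of 2. Differences of the size seen in these 4 genes could thus be missed.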

How the data were processed

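The authors deposited 1 table of whole-number counts (UMIs per gene and cell), aligned to mm9 per the submitters' processing notes. Which aligner and counter they used is not given in the sources used here. Of 13254 cell columns, 4789 of libraries not labelled somatic were not used. The 92 ERCC and 3 RGC spike-in entries stayed out of depths and tests. Cells needed 1000 genes and 3000 UMIs. No doublet caller was run, since 1 picked cell was lysed per well.

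Counts were summed over member cells per library (at least 5 cells) and tested in R 4.3.3 with edgeR 4.0.16 (TMM, filterByExpr, quasi-likelihood F test, all 3 genotypes in 1 fit, Benjamini-Hochberg adjustment, threshold 0.05). CPM of single genes scale to the summed UMIs of a library adjusted by its TMM factor. CPM of summed lists and markers, and pooled CPM of Lep and Lepr, scale to summed UMIs without that factor. DESeq2 1.42.0 and limma 3.58.1 on log2(mean CPM + 1) were alternatives. Shares were compared by two-sided permutation tests (100000 resamples, scipy 1.17.1). Intervals cover counting error only. The scripts were tested on simulated data. Of 100 simulated log2 changes of 1, the genotype fit recovered 26 (db/db against wild type), 17 (ob/ob against wild type) and 40 (between the mutants). Of 100 changes of 2 it recovered 75, 77 and 86. A gene that did not pass may thus still differ.

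Named genes were the 10 largest rises and falls past the threshold with at least 20 CPM on average, up to 4 passing members per list, the selection genes, Lep, Lepr and 11 reference genes. The member cells and the gene lists were chosen with earlier results of these data known. Replicate numbers follow accession order and pair nothing.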

Additional observations from a re-analysis of the deposited data

Results flagged for a closer look

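Genotype differences that were not the same in proliferating and other granulosa cells were counted by the genotype-by-state term in edgeR. There were 55 such genes for db/db against wild type, 29 for ob/ob against wild type and 1 between the mutants. At an unadjusted p under 0.05 they numbered 1252, 1165 and 1124 of 12532. The single gene between the mutants was 9930104L06Rik, with an interaction of 3.52. Foxn2 passed against wild type in both mutants, also without the 3 libraries of high oocyte markers (adjusted p = 0.0101 in db/db and 0.0223 in ob/ob). The first 2 comparisons share the wild type libraries.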

How the results depend on the processing

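Differing genes are given as a percentage of those tested, for db/db against wild type, ob/ob against wild type and db/db against ob/ob (1.59%, 1.1% and 0.376% as reported). Without the low count filter they were 14.3%, 12.1% and 12.5% (2663, 2258 and 2330 genes), with DESeq2 4.12%, 3.96% and 0.762% (427, 410 and 79) and with limma 3.35%, 3.69% and 0.656% (347, 382 and 68). After thinning, which also made the proliferation criterion stricter, the first 2 were 0.28% and 0.215% (26 and 20 genes). For db/db against wild type the value was 0.793% with at least 5 of 7 selection genes and 0.762% with only those genotypes fitted, and between the mutants 0.182% in the first range of library numbers. Alternatives chosen after seeing the data gave db/db against wild type 0.996% without cells holding oocyte markers and 0.965% with the UMI sum as a covariate, and 2.8% and 2.63% against wild type without the luteal libraries. Leaving out 1 library, also added later, gave 0.956% (without wild type replicate 7) to 2.82% (without 20) for db/db and 0.888% (without 7) to 2.38% (without 20) for ob/ob. Without wild type replicates 11, 16, 24 and 25 the db/db value was 1.04%, 0.995%, 1% and 1.01%. Between the mutants it was 0.32% (without ob/ob replicate 29) to 0.932% (without 21). The cause was not tested.

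Interactions were 0.101% and 0.0706% against wild type without the filter. With at least 3 cells of each state they were 1%, 0.586% and 0%, and with at least 10 they were 0%, 0.0836% and 0.0152%. The 0 values in edgeR had 891 and 1086 genes at an unadjusted p under 0.05. In alternatives added later they were 0.113% for db/db against wild type and 0% between the mutants without the oocyte libraries, and 0.0411%, 0.14% and 0% without oocyte-marker cells. The db/db share difference from wild type was 3.71 points with at least 5 of 7 genes and 1.47 after thinning. The ob/ob difference turned to -0.29 after thinning, and db/db minus ob/ob to -0.30 in the second range of library numbers. Aqp1 turned to higher values in db/db with at least 10 cells (0.75), at least 5 of 7 genes (0.53), thinning (0.76), DESeq2 (1.08) and limma (0.11), none past the threshold. No paired analysis was possible because replicate numbers are only names in accession order.

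Of the named calls that could be refitted, 42 lost significance, 19 held and 1 reversed after thinning, 39, 35 and 1 with at least 10 member cells per library, 26, 38 and 1 with at least 5 of 7 genes and 26, 48 and 1 with limma. Without oocyte-marker cells 21 lost it and 48 held, and with the UMI sum as a covariate 17 and 58. Wild type had the fewest members, 173 in 28 libraries, 14 of them tested.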
